A study of Mus musculus with 58 samples.

Results

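The 9 genes *Mbp*, *Mog*, *Mag*, *Mobp*, *Cnp*, *Cldn11*, *Ermn*, *Opalin* and *Ugt8a* make myelin or mark the oligodendrocytes that carry it, and they were looked up by symbol among the 31246 genes listed for the entorhinal cortex (EC) and for the primary visual cortex (PVC). All 9 were listed in both regions and none was at or near 0. RNA had been sequenced from both regions of male human *APOE* targeted replacement mice on C57Bl/6, aged 14 to 15 months, in which human *APOE* is expressed from the mouse promoter in place of mouse *Apoe*. In each region 10 *APOE3/3* and 19 *APOE3/4* mice were sampled, and the same 29 animal numbers appear in both. The labels give no treatment and no further transgene, the mice of the study came from more than one colony, and the dissected tissue was described as containing the EC or the PVC.

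Oligodendrocytes wrap axons in many layers of membrane, which insulates the axon and lets impulses jump from node to node. The compacted layers are held together by a few very abundant proteins and are rich in galactolipids, while other myelin proteins sit on the outer or the axon-facing surface. Oligodendrocytes arise from precursor cells that persist in the adult cortex, and myelinated fibres are denser in the deep layers and in the white matter under the cortex than near its surface.

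Each value below is the authors' mean normalized count of a gene over all libraries of a region, both genotypes together. Values of single mice were not analysed here, so no spread between mice can be given, no difference was tested, and whether 2 neighbouring genes in an order differ beyond their spread is not known. In bulk tissue fewer cells of a type and less RNA per cell cannot be told apart. Over all genes the EC means added up to 49385488 and the PVC means to 27058393, and the typical gene had a PVC mean of 0.539 times its EC mean. Levels are therefore given as CPM, the mean count of a gene per 1000000 of the summed mean counts of its region. Regional differences are given as the PVC over EC ratio divided by that of the typical gene, the median of the 15642 genes with a mean of at least 10 in both regions, so that a fold of 1 is the typical gene. The authors normalized the regions separately, and whether their libraries were prepared together is not given in the sources used here, so region and library handling cannot be told apart.

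*Mbp*, which encodes the basic protein that joins the inner faces of compact myelin, had the highest level of the 9 genes, per length as well. The EC mean count was 23278 and the PVC mean count 32366, which is 471 and 1196 CPM. This placed it at rank 284 among the 16941 genes with a mean of at least 10 in the EC, and at rank 49 among the 15682 such genes in the PVC. *Mbp* lies on chromosome 18 of NCBIM37, from 82644538 to 82755029, and its 16 annotated transcripts were counted together. *Mobp*, another basic protein of compact myelin, had 52.6 CPM in the EC and 160 in the PVC. *Cldn11*, the claudin of the tight junctions between myelin layers, had 23.8 in the EC, against 48.1 in the PVC.

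Among the membrane proteins of the surface, *Mag*, on the membrane that faces the axon, had 30.9 CPM in the EC and 90.5 in the PVC. *Mog*, on the outermost layer, had 8.38 and 23.4. *Opalin*, a transmembrane protein of mature oligodendrocytes, was the lowest of the 9 genes, per length as well, with 2.80 and 8.23 CPM, from mean counts of 138 and 223.

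Of the genes for enzymes and for the cytoskeleton, *Cnp*, a phosphodiesterase of the uncompacted myelin, had 78.3 CPM in the EC, against 153 in the PVC. *Ermn*, which encodes a cytoskeletal protein of late oligodendrocytes, had 11.6 and 34.5. *Ugt8a*, the enzyme that makes galactosylceramide, had 14.2 and 32.5. Every one of the 9 genes had the higher level in the PVC. The annotation places exon bases of genes on the opposite strand over *Cnp* (154 bases shared with *Dnajc7*) and *Ermn* (237 bases shared with *Galnt5*). The library kit does not mark strand, so reads there cannot be assigned to one gene, and the part of these overlaps in the values was not tested. *Galnt5* had mean counts of 4.12 and 4.87, and *Dnajc7* of 7274 and 4103.

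**Figure D1:**
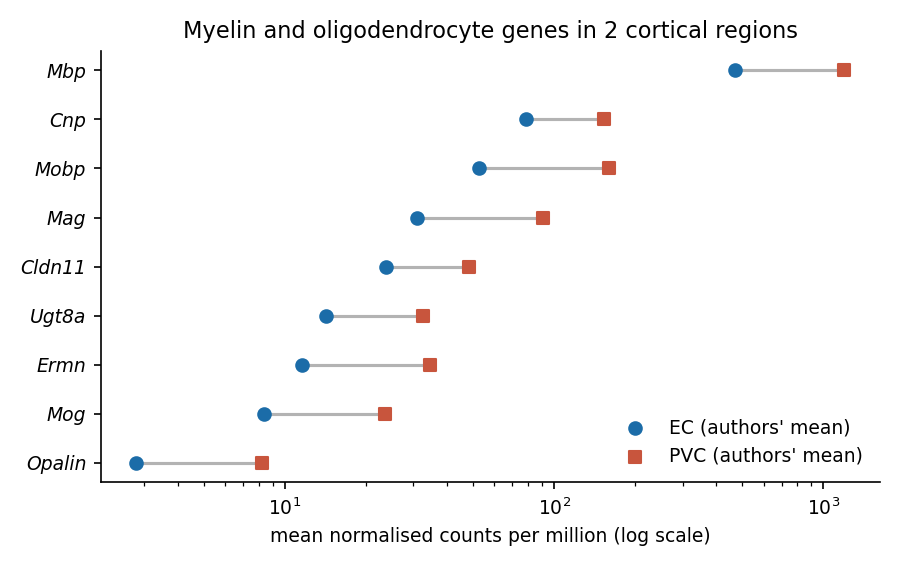
Authors' mean normalized counts, as CPM (log axis), of the 9 genes in the EC (circles) and the PVC (squares), joined by a line per gene. All 9 squares lie to the right of their circles, from 2.80 and 8.23 for *Opalin* to 471 and 1196 for *Mbp*.

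Levels can be compared between genes only per length. Per kilobase of annotated exon, *Mbp* had an EC mean count of 2770 and a PVC mean count of 3852, *Cnp* 1062 and 1138, and *Opalin* 75.3 and 121. In the EC the order per kilobase was *Mbp*, *Cnp*, *Cldn11*, *Mag*, *Mobp*, *Mog*, *Ugt8a*, *Ermn* and *Opalin*. In the PVC *Mag* stood above *Cldn11*, with 1009 against 705, and *Ermn* above *Ugt8a*, with 257 against 245. The first pair lay close together in the EC, at 637 for *Cldn11* and 628 for *Mag*. Without division by length *Mobp* stood below *Cnp* in the EC and above it in the PVC. Among genes with a mean of at least 10, *Mbp* was at the 94.7th percentile per kilobase in the EC and at the 98.5th in the PVC. For *Opalin* these percentiles were 27.1 and 42.0.

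The comparison between the regions asks how much of this RNA was held by the EC, a region vulnerable to Alzheimer's disease, and by the PVC, a resistant one. All 9 genes were higher in the PVC, and all 9 were past 1.5-fold, as were 5.38% of the 15642 genes. None of the 9 was past 1.5-fold toward the EC, where 6.78% of all genes were. The largest fold was that of *Mobp*, 3.09, followed by *Ermn* with 3.03, *Opalin* with 2.99, *Mag* with 2.98 and *Mog* with 2.84. *Mbp* followed with 2.58 and *Ugt8a* with 2.33, and the smallest folds were those of *Cldn11*, 2.06, and *Cnp*, 1.99. As log2 values the median of the 9 differences was 1.51, from 0.99 to 1.63, while 90% of all genes lay between −0.70 and 0.61.

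The direction was the same before dividing by the typical gene, although means normalized separately give no independent check of it. Before that step, the PVC mean count was above the EC mean count for all 9 genes, by a ratio of 1.07 for *Cnp* to 1.66 for *Mobp*, whereas this was so for 2.72% of the 15642 genes. Of the genes that are not members, 329 had a fold at least as large as that of *Cnp*, and 94 one at least as large as that of *Mobp*. The members span wide ranges of level and of exon length, and most genes fall within them. Shares within these ranges therefore cannot tell whether level or length goes with the fold. Of 12449 other genes whose EC mean lay in the range of the members, 4.06% were past 1.5-fold toward the PVC, and of 11393 others with an exon length between 1701 and 8403 bases, as the members had, 5.35% were. The 9 genes lie on 8 chromosomes. On NCBIM37, *Cldn11* (chr3:31048868-31063246), *Mobp* (chr9:120058860-120090602) and *Cnp* (chr11:100436218-100453043) are on the plus strand, as is *Mbp*. On the minus strand are *Ugt8a* (chr3:125568277-125641468), *Mag* (chr7:31684202-31699851), *Ermn* (chr2:57897524-57905275), *Mog* (chr17:37147691-37160343) and *Opalin* (chr19:41136964-41151603).

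**Figure D2:**
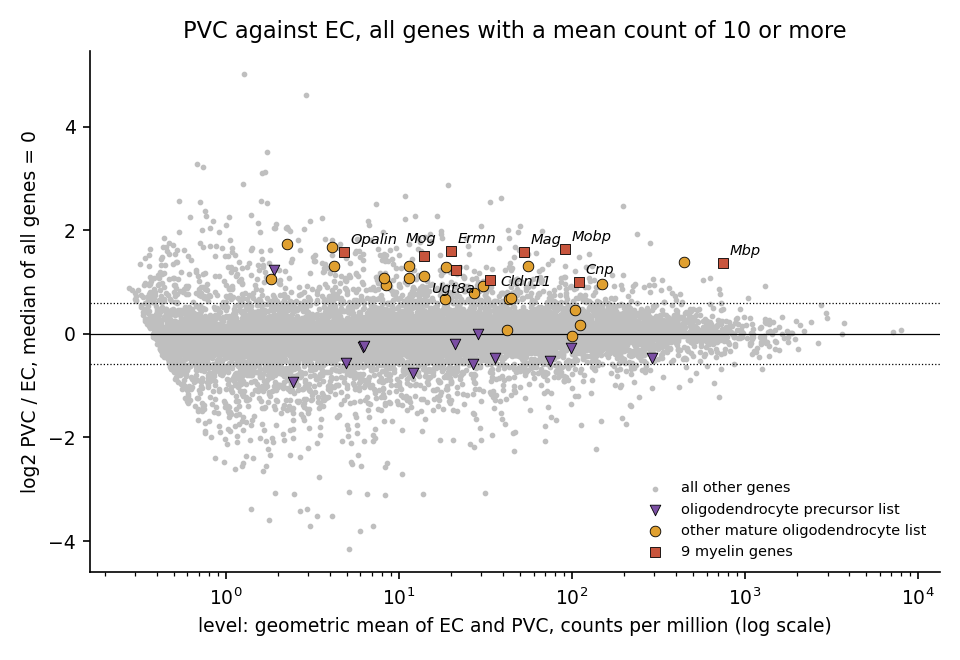
Log2 PVC over EC difference, with the median of all genes at 0, against the geometric mean level in CPM (log axis), 1 point per gene. The 9 myelin genes (squares) lie between 0.99 and 1.63, above the dotted line of 1.5-fold, and most precursor genes (triangles) lie below 0.

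The folds were not equal within the set, and the make-up of the myelin RNA differed a little between the regions. This comparison needs no scaling between the tables. *Mbp* made up 67.9% of the summed mean counts of the 9 genes in the EC, and its PVC share was 68.5%. *Cnp* made up 11.3% in the EC and 8.76% in the PVC. *Cldn11* likewise had the smaller share in the PVC, 2.75% against 3.43% in the EC, as did *Ugt8a* with 1.86% against 2.04%. *Mobp* had the larger share in the PVC, 9.14% against 7.58%, and so had *Mag*, with 5.19% against 4.45%. For each 100 counts of *Mbp* there were 6.55 of *Mag* in the EC, against 7.57 in the PVC, and 16.6 and 12.8 of *Cnp*.

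**Figure D3:**
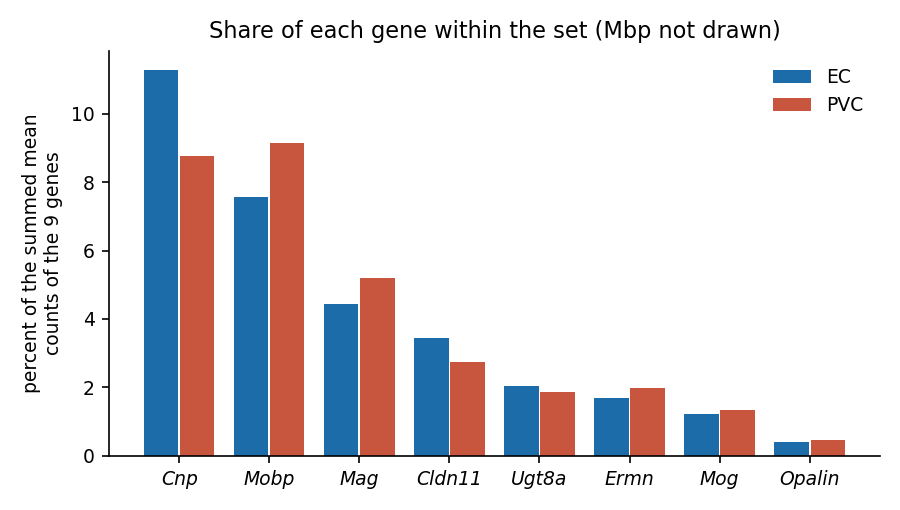
Share of 8 of the 9 genes in the summed mean counts of the set, in percent, in the EC (left bars) and the PVC (right bars), with *Mbp* left out because it holds over 60% in both. *Cnp* is at 11.3% in the EC and 8.76% in the PVC, and *Mobp* at 7.58% and 9.14%.

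As the 9 genes were higher in the PVC together but to unequal degrees, their promoters were compared. Windows of 300 bases, from 250 before to 50 after the transcription start, came from RefSeq on GRCm38.p6 and were found for 8 of the 9 genes, all but *Mbp* (for *Mag*, which has 3 windows, the first listed was used). The windows of *Mobp* and *Mog*, 2 genes of large fold, and of *Cnp*, the gene of the smallest, are printed 5′ to 3′ with CpG dinucleotides in capitals. They lie at chr9:120149492-120149791 on the plus strand, chr17:37023349-37023648 on the minus strand and chr11:100574689-100574988 on the plus strand.
*Mobp*: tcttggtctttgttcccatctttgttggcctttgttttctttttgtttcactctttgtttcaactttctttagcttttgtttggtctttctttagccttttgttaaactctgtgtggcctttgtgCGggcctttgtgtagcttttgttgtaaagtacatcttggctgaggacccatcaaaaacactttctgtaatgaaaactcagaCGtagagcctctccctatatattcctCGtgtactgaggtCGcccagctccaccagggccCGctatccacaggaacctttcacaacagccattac
*Mog*: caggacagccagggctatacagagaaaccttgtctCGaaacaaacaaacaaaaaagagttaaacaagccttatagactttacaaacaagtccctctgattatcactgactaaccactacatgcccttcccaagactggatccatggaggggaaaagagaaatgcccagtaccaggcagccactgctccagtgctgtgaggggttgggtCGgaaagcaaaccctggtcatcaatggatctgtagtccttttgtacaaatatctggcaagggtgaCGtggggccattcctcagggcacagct
*Cnp*: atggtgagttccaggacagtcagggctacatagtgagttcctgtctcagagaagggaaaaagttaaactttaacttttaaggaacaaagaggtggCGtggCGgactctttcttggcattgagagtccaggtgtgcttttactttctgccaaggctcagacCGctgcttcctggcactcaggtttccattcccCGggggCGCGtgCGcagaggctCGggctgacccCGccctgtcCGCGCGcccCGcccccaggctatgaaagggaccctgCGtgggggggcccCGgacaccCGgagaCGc
The *Mobp* window holds 5 CpG dinucleotides, the *Mog* window 3 and the *Cnp* window 17, where the median of 27025 windows is 7. The 5 genes with the larger folds, from 2.84 to 3.09, had between 3 and 6, while *Cnp*, *Cldn11* and *Ugt8a*, with folds of 1.99 to 2.33, had 17, 24 and 40. This division was noticed after the folds were known. Among 13 other genes of mature oligodendrocytes with a window, the median fold was 2.17 below 10 CpG dinucleotides (6 genes) and 1.89 from 10 upward (7 genes), with ranges of 0.967 to 3.18 and of 1.06 to 3.30 that overlap almost wholly. Among 11 genes of oligodendrocyte precursors with a window, these medians were 0.821 (5 genes) and 0.783 (6 genes), with overlapping ranges of 0.595 to 2.35 and of 0.526 to 0.997. Over all 10507 other genes with a window the medians differed little and in the opposite order. Their median log2 difference was −0.04 below 10 CpG dinucleotides and 0.01 from 10 upward. A motif bound by Sox factors, ACAAAG or ACAATG on either strand, was found in the windows of 5 of the 8 genes, *Ermn*, *Mag*, *Mobp*, *Cnp* and *Opalin*, and in 28.8% of all windows. The *Mobp* window holds 6 matches, and no motif searched contains another. The E-box CAGCTG was found for *Opalin* alone (16.1% of all windows), CCAAT for *Ermn* and *Cldn11* (37.9%), and TATAAA for none of the 8 (14.2%).

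Most other genes of the mature oligodendrocyte were higher in the PVC as well. Of a list of 22 such genes, 18 were past 1.5-fold toward the PVC and 0 toward the EC, with a median fold of 2.00. Past 2-fold toward the PVC were 11, as were 2.12% of all genes. For this list and those below, 5.38% of all genes were past 1.5-fold toward the PVC and 6.78% toward the EC. *Mal*, a lipid raft protein of myelin, had a fold of 2.46. *Gjb1*, a connexin of oligodendrocytes, had a fold of 3.18. The highest of the list was *Tmem125* with 3.30, and the lowest *Apod*, an apolipoprotein, with 0.967. *Car2*, *Gsn* and *Omg* were likewise not past 1.5-fold, with 1.37, 1.06 and 1.13.

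Enzymes of lipid synthesis stood nearer to the typical gene. Of 7 with a mean of at least 10, 1 was past 1.5-fold, *Fa2h*, the fatty acid hydroxylase that acts in galactolipid synthesis beside *Ugt8a*. Its fold of 2.34 was near that of *Ugt8a*, 2.33. *Gal3st1*, which turns the product of *Ugt8a* into sulfatide, had a fold of 1.37, and the median of the list was 1.11. The cholesterol enzyme *Sqle* was lowest with 0.758, and *Hmgcs1* was listed at 0 in both regions.

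Transcription factors of the lineage divided. Of 10, the 3 past 1.5-fold toward the PVC were *Nkx6-2* with 2.73, *Myrf* (listed as Gm98), the activator of myelin genes in differentiating oligodendrocytes, with 2.31, and *Tcf7l2* with 1.90. *Olig1*, *Olig2* and *Sox10* had folds of 1.11, 1.06 and 1.35. The rest of the list, *Sox8*, *St18*, *Zfp488* and *Nkx2-2*, had 1.12, 1.27, 0.943 and 0.921. The median of the list was 1.19, and none of the 10 was past 1.5-fold toward the EC.

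Most genes of oligodendrocyte precursors lay on the other side of the typical gene, but few were past 1.5-fold. Of 13 genes, 12 had a fold below 1, where by definition as many of all genes lie as above it. The median of the list was 0.723. *Sox6* was close to 1 with 0.997, and *Vcan*, *Lhfpl3* and *Neu4* had 0.873, 0.852 and 0.840. *Pdgfra*, a growth factor receptor used to mark these cells, had 89.8 CPM in the EC, against 61.5 in the PVC, a fold of 0.696. *Cspg4*, the NG2 proteoglycan, had a fold of 0.671. Past 1.5-fold toward the EC were 2 of the 13, *Bmp4* (0.526) and *Matn4* (0.595), beside 6.78% of all genes. This count of 2 became 4 when the regions were scaled to their summed mean counts, and 0 at 2-fold. The exception was *Enpp6*, a marker of newly formed oligodendrocytes, which was past 1.5-fold toward the PVC with a fold of 2.35 at mean counts of 61.9 and 78.4. Whether stage sets it apart from the other 12 genes was not tested. Within a region, the 9 myelin genes together had 0.973 counts for each count of the 13 precursor genes in the EC, against 3.33 in the PVC. Without *Mbp* these ratios were 0.312 and 1.05. A single gene, *Ptprz1*, held 345 of the 713 CPM of the precursor genes in the EC, and 244 of the 524 in the PVC. For each 100 counts of *Pdgfra* there were 9.33 of *Mog* in the EC, against 38.1 in the PVC. These ratios need no scaling between the tables.

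**Figure D4:**
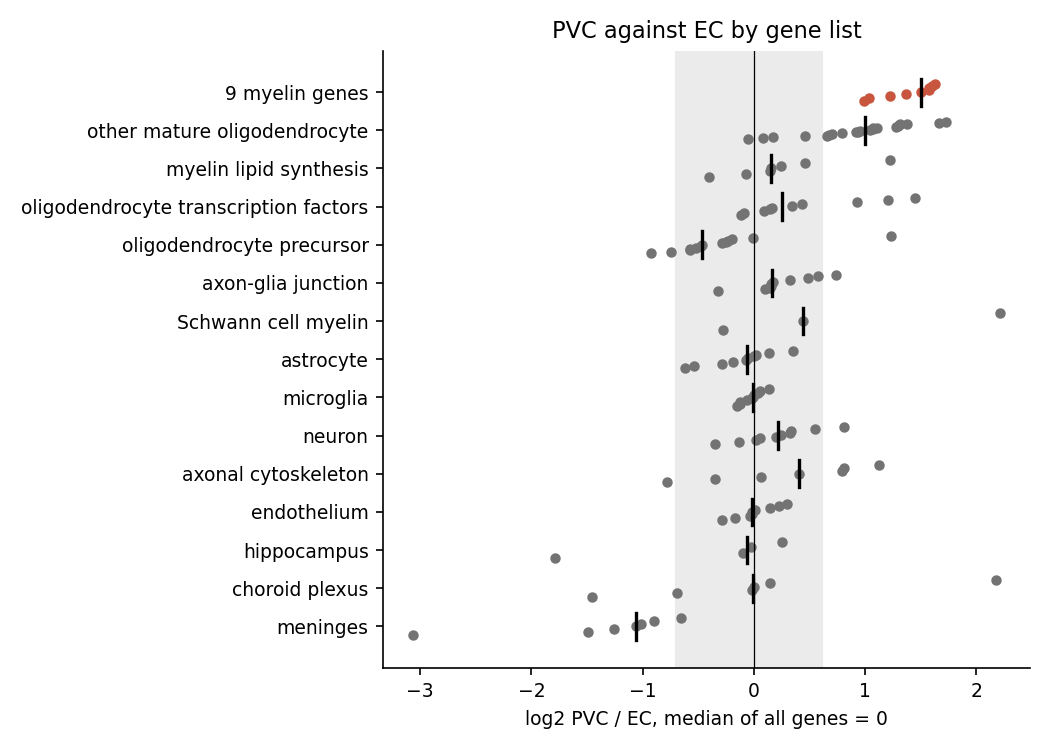
Log2 PVC over EC difference of every gene (point) of 15 gene lists, with the median of all genes at 0, the median of each list as a bar, and the range of the middle 90% of all genes shaded. The 9 myelin genes have a median of 1.51, the precursor list one of −0.47, and the microglia and endothelium lists stay near 0.

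The other glial and vascular lists stood near the typical gene. The median fold was 0.957 for 10 astrocyte genes, 0.992 for 10 microglia genes and 0.991 for 9 endothelial genes. Of these 29 genes, 1 was past 1.5-fold, *Gfap*, with 0.653. The astrocyte gene *Aqp4* had 0.687, near the 0.696 of *Pdgfra*. Of the 10 astrocyte genes, 4 had a fold above 1, the highest being *Aldh1l1* with 1.28. The median of 10 neuronal genes was 1.16. Of 5 genes of Schwann cells, which myelinate peripheral nerve, 3 had a mean of at least 10, with a median fold of 1.36. These were *Egr2*, which stimulated neurons also express, with 4.65, *Pmp22* with 1.36 and *Prx* with 0.823. *Pmp2* was near 0 in both regions, with mean counts of 1.23 and 0.165.

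Some markers of axons and of neighbouring tissue differed between the regions along with the myelin genes. Of 7 axonal cytoskeleton genes, *Nefl*, *Nefm* and *Nefh*, the neurofilament subunits of large axons, were past 1.5-fold toward the PVC with folds of 1.75, 2.19 and 1.73, and *Gap43*, a protein of growing axons, was past it toward the EC with 0.580. *Cntn2*, which clusters potassium channels beside the paranode, was the only one of 10 genes of the axon-glia junction past 1.5-fold, with 1.67, and *Kcna1*, such a channel, had 1.49. All 7 genes of the meninges were past 1.5-fold toward the EC, from 0.635 for *Lum* to 0.119 for *Dcn*, and together held 293 CPM in the EC and 106 in the PVC. Of 4 hippocampal genes with a mean of at least 10 in both regions, *C1ql2* was past 1.5-fold toward the EC, with 0.289. *Prox1*, *Lct* and *Trpc6* had 1.19, 0.936 and 0.984. *Dsp* and *Tdo2*, also of this list, were left out for PVC means just under 10, 9.69 and 9.58. Their EC means were 35.7 and 28.3, and their levels were 0.724 and 0.573 CPM in the EC, against 0.358 and 0.354 in the PVC. Of 6 genes of the choroid plexus with a mean of at least 10 in both regions, *Ttr* was past 1.5-fold toward the PVC with 4.53. *Kcnj13* and *Prlr* were past it toward the EC with 0.365 and 0.619. The part of the meninges, of the other tissues marked here and of the white matter taken with each dissection was not tested. This holds for the levels of the myelin genes and of the precursor genes, *Pdgfra* and *Cspg4* among them.

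Over the 2 regional means, the 5 other genes with mean counts of at least 1000 whose difference was nearest to the median of the myelin genes were *Sema7a*, *Bcas1*, *Nr4a1*, *Plcb4* and *Sytl2*, with log2 differences of 1.48 to 1.56. Likeness over 2 values is a weak measure. *Bcas1*, at 1.48, is itself known from oligodendrocytes, while *Nr4a1* is an immediate early gene. Of the 5807 other genes of that abundance, 1.02% had a difference at least as large as that of *Cnp*.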

How the data were processed

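The authors aligned single-end reads of poly(A)+ RNA to mm9 with TopHat2 2.0.6 and Bowtie2 2.0.2.0, counted them per gene with HTSeq on a modified NCBIM37 annotation, and used DESeq2 1.10.1 within each region. The signal used here is the mean normalized count that the authors deposited for each gene, averaged over the 29 libraries of each region after division by size factors. The other deposited columns hold the authors' own comparison of *APOE3/4* with *APOE3/3* (fold change, its error, a test statistic and *p*-values). They were not used, so genotypes are not compared. The labels name 2 EC and 5 PVC libraries as sequenced repeatedly for depth. Depth per library was not analysed here.

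The tables were normalized separately, so log2 ratios of PVC to EC were centred on the median of the genes with a mean of at least 10 in both, and a fold of 1.5 was used for calls. The centring was checked on simulated counts with a known scale between the regions. These counts had no variation between mice, so the error of the real folds was not measured. Exon lengths and positions came from GENCODE on NCBIM37, the build of mm9, which matched 80.6% of the genes listed. Named genes are the 9 members, all genes past the fold in a list where these number up to 5, the highest and lowest of each longer list, and 5 genes of like difference. Other list genes were named after their values were seen, for their role or to give the rest of a list. Some genes of the lists are not reported here by name. Members and lists were chosen with earlier results of these data known. Alternatives were other scalings, minimum counts and folds. Python 3.11.15, numpy 2.4.6, pandas 2.3.3 and matplotlib 3.10.9 were used.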

Additional observations from a re-analysis of the deposited data

How the results depend on the processing

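The median log2 difference of the 9 myelin genes stayed between 1.48 and 1.54, that of the other mature oligodendrocyte genes between 0.92 and 1.03 and that of the precursor genes between −0.49 and −0.44 when the tables were scaled to their summed mean counts, with or without the 100 most abundant genes, centred on a trimmed mean, or limited to a minimum mean count of 100 or of none. The 45 values of single members under these settings lay between 0.97 and 1.65 and all kept their direction. At 2-fold in place of 1.5-fold, 8 of the 9 genes were past it toward the PVC, all but *Cnp*, as were 2.12% of all genes. At 2-fold the other mature oligodendrocyte genes past it toward the PVC were 11 in place of 18, and the precursor genes past it toward the EC were 0 in place of 2. Scaling to summed mean counts, with or without the most abundant genes, raised the latter to 4, and with a minimum of 100 it was 3, with 0 in place of 1 toward the PVC. Percentiles of level depend on whether genes under a mean of 10 are counted. *Opalin* moved from 24.8 to 51.1 in the EC. No paired analysis was possible because the tables hold no values of single mice, although the same animals gave both regions, and no replicate could be left out. Region and any batch that went with it cannot be told apart.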
